A study of Mus musculus with 2 samples.

Results

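Mir7-1, Mir7-2, Mir7b and Mir671 are the miRNA genes whose products act on Cdr1as, a circular RNA of the brain. They were taken by name from the GENCODE M21 miRNA genes, and make 4 of the 2202 genes in the tables. Each table was a miRNA sequencing library of total RNA, with fragments under 30 nucleotides, from left cerebral cortex. The mice were adult females of the strain 5xFAD/CAST, 8 to 10 months old. 5xFAD mice carry mutant human transgenes of familial Alzheimer's disease, driven by the Thy1 promoter of neurons, and form amyloid plaques. The 2 libraries, biological replicates 1 and 2, made up 1 group. No library without the transgenes was present, so levels are described within this tissue and no genotype was compared. The labels give both libraries 1 donor entry and separate tissue samples and do not name separate animals, so p-values speak of these libraries alone, and their spread may be technical.

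A miRNA guides an Argonaute protein to RNAs that pair with its seed, bases 2 to 8 counted from its 5′ end. The linear transcripts it finds are repressed, but Cdr1as, a closed circle with many miR-7 seed matches, is known to withstand miR-7 and to bind it in neurons. miR-671 is known to cut Cdr1as at a site of nearly full complementarity, and the long noncoding RNA Cyrano is known to direct miR-7 to degradation. miR-7 is also known for its high level in neuroendocrine cells of the hypothalamus, pituitary and pancreatic islet.

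All 4 hairpins matched RefSeq's miRNA sequences (GRCm38.p6), and these were identical to the M21 hairpins. The mature sequences are shown because seed and locus differ in how far they are shared. Capitals mark the seed.
miR-7a-5p: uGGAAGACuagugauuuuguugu
miR-7b-5p: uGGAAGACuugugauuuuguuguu
miR-7a-1-3p: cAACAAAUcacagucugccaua
miR-7a-2-3p: cAACAAGUcccagucugccaca
miR-7b-3p: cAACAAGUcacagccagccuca
miR-671-5p: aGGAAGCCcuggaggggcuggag
miR-671-3p: uCCGGUUCucagggcuccacc

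miR-7a-5p was encoded identically by Mir7-1 and Mir7-2. Over its 23 bases, miR-7b-5p differed from it by A10U (positions from the 5′ end), which lies outside the seed. No other mature miRNA among 1674 distinct sequences in the RefSeq table had the seed of miR-7a-5p and miR-7b-5p. The seed of miR-671-5p differed from it by 1 base, A7C, and was found in no other mature miRNA of that table. The passenger arms were less alike. miR-7a-1-3p and miR-7a-2-3p differed at 3 of 22 bases (A7G, A10C and U21C), and miR-7b-3p shared its seed with miR-7a-2-3p.

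The hairpins of Mir7-1 and Mir7-2 shared an unbroken stretch of 24 bases that holds the whole of miR-7a-5p. Capitals mark that stretch. Neither Mir7b nor Mir671 shared an 18-base stretch with any other miRNA gene of the tables.
Mir7-1: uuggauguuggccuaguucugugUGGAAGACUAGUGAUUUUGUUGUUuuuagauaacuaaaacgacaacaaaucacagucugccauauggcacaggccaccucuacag
Mir7-2: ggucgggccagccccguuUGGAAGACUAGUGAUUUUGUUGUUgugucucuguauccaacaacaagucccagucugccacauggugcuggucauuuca
Mir7b: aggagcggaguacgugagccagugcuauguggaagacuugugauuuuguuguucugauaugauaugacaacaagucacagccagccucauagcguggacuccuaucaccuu

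The genes lie on separate chromosomes of mm10 (GRCm38), and none had another miRNA gene within 10 kb. Mir7-1 (ENSMUSG00000065434.1) lies on the minus strand at chr13:58392779-58392886, in an intron of Hnrnpk, which encodes an RNA-binding protein. Mir7-2 (ENSMUSG00000065609.1; chr7:78888277-78888373, plus strand) and Mir7b (ENSMUSG00000065491.1; chr17:56242988-56243098, plus strand) are intergenic in M21. Mir671 (ENSMUSG00000076387.1; chr5:24592114-24592211, plus strand) lies within coding sequence of Chpf2, which takes part in chondroitin synthesis, on the same strand. Counts of Mir671 and of short Chpf2 fragments from that stretch cannot be told apart in these tables. Intergenic means here that no gene other than a miRNA gene holds the whole hairpin on its own strand. Genes on the opposite strand were not considered.

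Replicate 1 held 4226300 counts on the strand of a miRNA gene and replicate 2 held 5162369. Reads mapping to several places were in a row of their own, 40.4% and 39.4% of all reads, and entered no gene. Levels are in CPM, the counts of a gene in every 1000000 counts on miRNA genes, and detection means a level of at least 10 CPM in each library, which 309 genes reached. Of the neuronal miRNA genes listed as markers of this tissue, 16 of 20 were detected, with a summed level of 74741 CPM in replicate 1 and 49575 in replicate 2. Mir132 alone held 40577 and 21189 CPM of these sums. Not detected were Mir124a-1, Mir124a-2, Mir124a-3 and Mir9-2. Each shares an 18-base stretch with other miRNA genes, so its count leaves out any read with several mapping places. Intervals below are 95% binomial intervals (Wilson for levels and shares, exact for ratios) and cover counting error only.

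By uniquely counted reads, Mir7b and Mir671 were the abundant members. Mir7-1 and Mir7-2, which lose reads of their shared stretch, had far lower counts. Mir7b took 8785 counts in replicate 1 and 12386 counts in replicate 2, that is 2079 CPM (2036 to 2123) and 2399 CPM (2357 to 2442). Its mean of 2239 CPM ± 227 (SD, n = 2) was exceeded by 63 of the 309 detected genes. Mir671 had 9498 and 13898 counts, or 2247 CPM (2203 to 2293) and 2692 CPM (2648 to 2737). Its mean of 2470 CPM ± 315 (SD, n = 2) was exceeded by 58 detected genes. The ranges of Mir7b and Mir671 over the libraries overlapped, so the order of these neighbours was within the spread between libraries. Within each library, Mir671 was slightly higher, by 1.08 times (1.05 to 1.11) in replicate 1 and 1.12 times (1.10 to 1.15) in replicate 2.

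Mir7-2 had 342 and 638 counts, or 80.9 CPM (72.8 to 90.0) and 124 CPM (114 to 134), with a mean of 102 CPM ± 30.2 (SD, n = 2). Mir7-1 had 232 and 359 counts, or 54.9 CPM (48.3 to 62.4) and 69.5 CPM (62.7 to 77.1), with a mean of 62.2 CPM ± 10.4 (SD, n = 2). The levels of Mir7-1 and Mir7-2 did not overlap between the genes, with both libraries of Mir7-2 above both of Mir7-1, and both genes lay below Mir7b and Mir671 in each library. All 4 members were detected, and 203 and 226 detected genes had a higher mean than Mir7-2 and Mir7-1. Divided by the length of the hairpin, 97 to 111 bases, levels were 25202 CPM per kilobase for Mir671, 20171 for Mir7b, 1054 for Mir7-2 and 576 for Mir7-1. The order was the same, but with lengths this close it could hardly change, so this adds no support to it.

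**Figure D1:**
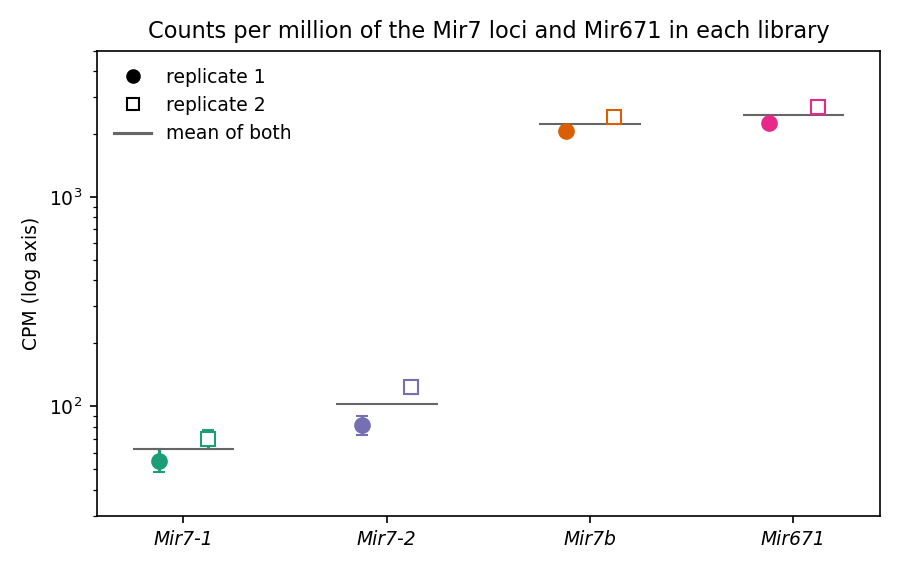
Level of each member in CPM (log axis) in replicate 1 (filled circles) and replicate 2 (open squares), with Wilson 95% intervals for counting error where they exceed the symbol and a bar at the mean of both. Mir7b and Mir671 lie between 2079 and 2692 CPM, and Mir7-1 and Mir7-2 between 54.9 and 124 CPM.

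**Figure D2:**
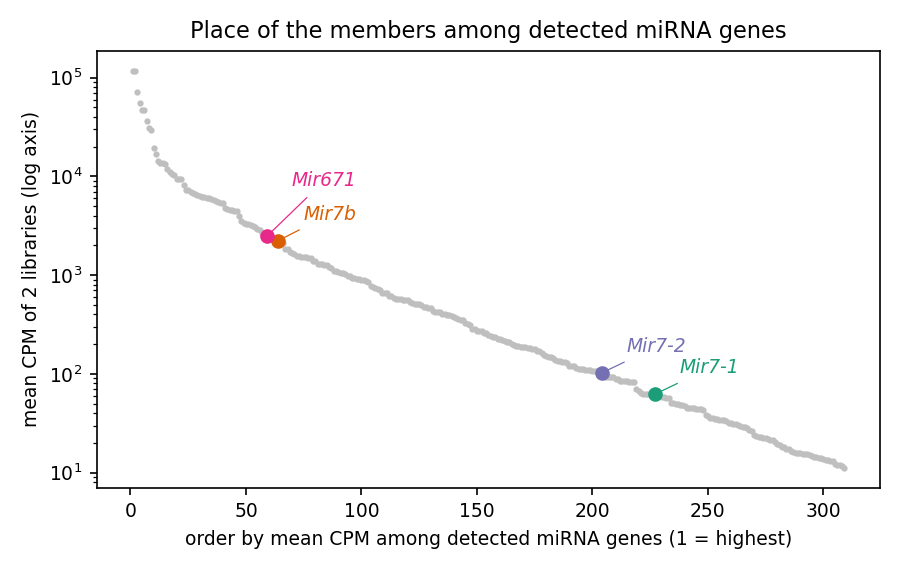
Mean CPM of both libraries (log axis) against the order of the 309 detected miRNA genes, with the 4 members coloured. Mir671, with 58 genes above it, and Mir7b, with 63, lie close together in the upper part of the curve, and Mir7-2 and Mir7-1 lie near 100 CPM and below.

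Of the counts on the 3 Mir7 loci, Mir7b held 93.9% (93.4 to 94.3) in replicate 1 and 92.6% (92.1 to 93.0) in replicate 2. Mir7-2 held 3.65% (3.29 to 4.05) and 4.77% (4.42 to 5.14), and Mir7-1 held 2.48% (2.18 to 2.81) and 2.68% (2.42 to 2.97). The intervals of Mir7b and of Mir7-2 did not overlap between the libraries, and those of Mir7-1 did. The part of the split that fell to identical reads could not be seen: the shared 24-base stretch covers miR-7a-5p at both loci, tables sum the arms of a hairpin, and a read with several mapping places was counted for no gene. The counts of Mir7-1 and Mir7-2 are therefore uncertain and leave out any read that lies wholly in that stretch. Mir7b shares no 18-base stretch with another miRNA gene. The share held by Mir7b refers to uniquely counted reads and is raised by any such loss. It does not show which locus makes most miR-7. How many miR-7a-5p reads went to the row of reads mapping to several places was not tested. Between Mir7-1 and Mir7-2 alone, Mir7-2 held 59.6% (55.5 to 63.5) and 64.0% (61.0 to 66.9), intervals that overlap.

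Summed over the 3 loci, Mir7 had 2214 CPM in replicate 1 and 2592 in replicate 2, a mean of 2403 CPM ± 267 (SD, n = 2). Together the 4 members took 0.446% (0.440 to 0.453) and 0.528% (0.522 to 0.535) of all counts on miRNA genes. Mir671 held 50.4% (49.7 to 51.1) and 50.9% (50.4 to 51.5) of the members' counts. Among uniquely counted reads, Mir671 and the Mir7 loci together thus had close to even counts in both libraries. The Mir7 counts leave out any read lying wholly in the stretch shared between Mir7 loci. Counts sum the arms of each hairpin, and those of Mir671 may include short Chpf2 fragments. The balance between the miRNA that cuts Cdr1as and the miRNA that Cdr1as binds was therefore not tested.

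The libraries differed in each member, with replicate 2 higher. Ratios are scaled by TMM, which takes most genes as not differing, with 0.5 counts added to each library. By a two-sided exact binomial test with Benjamini-Hochberg adjustment over 546 genes with at least 10 counts, all 4 members were called higher in replicate 2, against 24.5% of the genes tested. In either direction, 58.8% of tested genes were called, so a call is common here. Of the 235 tested genes with at least 500 summed counts, as all 4 members had, 87.2% were called and 38.3% were called higher in replicate 2. Mir7-2 differed by 1.49-fold (exact interval 1.31 to 1.71; exact binomial adjusted p = 3.54e-09) and Mir7-1 by 1.24-fold (1.05 to 1.47; exact binomial adjusted p = 0.0213). Mir671 differed by 1.17-fold (1.14 to 1.20; exact binomial adjusted p = 2.12e-32) and Mir7b by 1.13-fold (1.10 to 1.16; exact binomial adjusted p = 8.42e-18). This is a test of 2 libraries and of no condition, and it allows for counting error alone.

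The log2 ratios of Mir7-1, Mir7b and Mir671 were below the median size over tested genes, and that of Mir7-2 was above it. The members' median log2 ratio was 0.27, against -0.07 for all 546 genes tested, and the median size of a log2 ratio over all of these was 0.50. The log2 ratio of Mir7b, 0.18, was exceeded in size by 80.6% of tested genes, that of Mir671, 0.23, by 75.1%, that of Mir7-1, 0.31, by 69.8% and that of Mir7-2, 0.58, by 44.0%. The biological coefficient of variation (BCV) over these genes was 0.481. The edgeR exact test was run with a BCV set by hand to 0.1, below that estimate, so its calls rest on a spread smaller than the one seen here. It called 1 of the 4 members, Mir7-2 (adjusted p = 0.0395), where 28.8% of tested genes were called in either direction and 10.3% higher in replicate 2. The adjusted p of this edgeR test was 0.359 for Mir7-1, 0.433 for Mir671 and 0.588 for Mir7b.

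**Figure D3:**
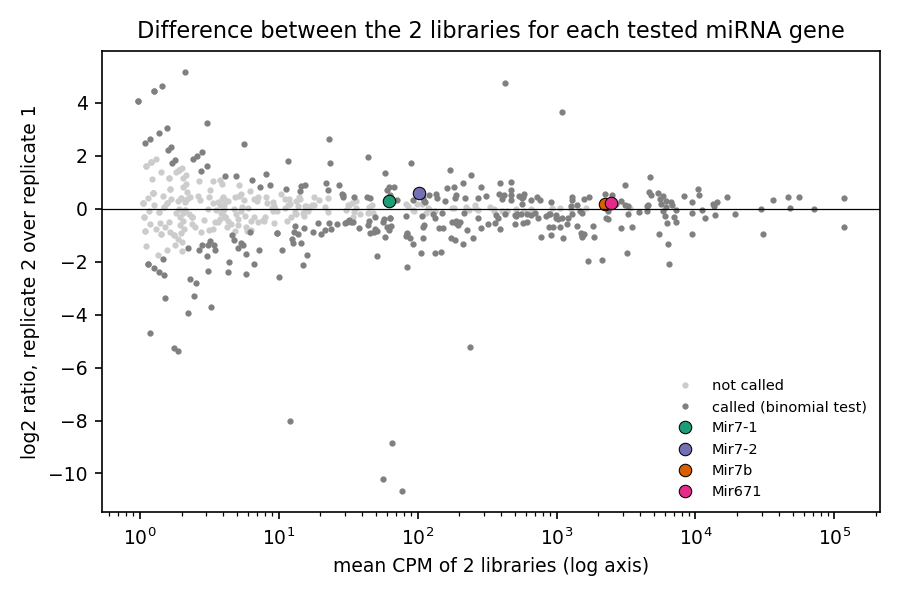
Log2 ratio of replicate 2 over replicate 1 (TMM-scaled) against mean CPM (log axis) for the 546 tested miRNA genes, called (dark) or not called (light) by the exact binomial test, with the 4 members coloured. The members lie between 0.18 and 0.58, above 0 and inside the spread of genes at their level.

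Marker lists also differed between the libraries. Of all 546 genes tested, 187 were called higher in replicate 1 and 134 in replicate 2, so calls within a list are common too. The 4 blood genes in the table summed to 89.7 CPM in replicate 1 and 890 in replicate 2, and split by direction, 2 called higher in each library. Mir451a of red cells (426 CPM ± 560) held most of the sum and was higher in replicate 2, from 30.0 to 821 CPM. Mir144 went the same way, from 6.15 to 39.7 CPM. Mir486 (31.1 ± 7.24) and Mir3107, from 17.3 to 2.91 CPM, were higher in replicate 1. Mir486 and Mir3107 share an 18-base stretch with each other, and Mir451a shares such a stretch with another miRNA gene. Their counts leave out any read with several mapping places. The genes of endothelium and mural cells summed to 13268 and 19327 CPM, with 3 of 5 detected. Of the genes tested, 2 were called higher in replicate 2 and 1 in replicate 1. Mir126a (10439 ± 3794) and Mir143 (5656 ± 537) were the most abundant, both higher in replicate 2. The microglia and immune sum was 6040 and 2938 CPM (5 of 7 detected). Of 6 tested, 4 were called higher in replicate 1, Mir21a (2128 ± 1738) and Mir146 (1205 ± 185) among them, and 1, Mir142, higher in replicate 2. Most of the change in that sum lay in Mir21a, which had 3357 CPM in replicate 1 and 899 in replicate 2. The astrocyte sum was 44856 and 41400 CPM (8 of 8 detected). Of 8 tested, 6 were called higher in replicate 1, including Mir23b (19398 ± 1713) and Mir29a (11769 ± 1779), and 1 in replicate 2. The oligodendrocyte sum was 7100 and 5341 CPM (2 of 4 detected, Mir219b at 0), and Mir219a-2 (3287 ± 267) and Mir338 (2923 ± 979) were the 2 of 3 tested that were called higher in replicate 1. The neuron list, led by Mir132 (30883 ± 13710) and Mir383 (7217 ± 110), had a lower sum in replicate 2 (SD, n = 2 throughout). Most of the change in that sum lay in Mir132, which had 40577 CPM in replicate 1 and 21189 in replicate 2. Of 19 tested in the neuron list, 11 were called higher in replicate 1 and 4 in replicate 2. In the unstranded column, Mir142, Mir219a-2, Mir338, Mir451a and Mir486 had 0 CPM and Mir126a had 0.46, so their levels rest on the strand column. The other genes given a mean level above had counts there. The part of these lists in the members' differences was not tested, and fewer cells of a type and less RNA per cell cannot be told apart in bulk tissue.

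Because miR-7 is known from neuroendocrine cells, a list of 9 genes of neuroendocrine and sensory epithelium was set beside it. It summed to 927 CPM in replicate 1 and 743 in replicate 2, with 6 of 9 detected. Of 8 tested, 7 were called higher in replicate 1, against 187 of all 546 genes tested. Mir375, the islet and pituitary miRNA gene, was the exception, with 1306 and 2407 counts and a mean of 388 CPM ± 111 (SD, n = 2). Its log2 ratio was 0.56 towards replicate 2, while the median over the 8 tested genes of the list was -1.03. Mir183 followed at 109 ± 54.5 CPM and was called higher in replicate 1.

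Mir7 was set beside 8 other neural families encoded at several loci. Mir128 (7867 CPM ± 4503), Mir138 (7423 ± 852) and Mir219a (3297 ± 264) lay above it, and Mir129 (1224 ± 235), Mir218 (187 ± 56.2), Mir9 (110 ± 2.40), Mir135a (44.0 ± 9.01) and Mir124 (4.72 ± 0.991) below (SD, n = 2). The most abundant loci among the others were Mir128-1 at 6344 ± 3757 CPM and Mir138-1 at 4532 ± 408 CPM. Mir7 and Mir219a did not overlap over the libraries, and neither did Mir7 and Mir129. All 18 loci of the other families shared an 18-base stretch with another miRNA gene, while Mir7b, which held most of the Mir7 counts, shared none. The largest share held by 1 locus was 93.2% for Mir7 (Mir7b), below the 99.7% of Mir219a (Mir219a-2) and above the 56.5% to 84.0% of the other families. Since a read with several mapping places was counted for no gene, sums of families with shared stretches are uncertain and their order does not rank expression.

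**Figure D4:**
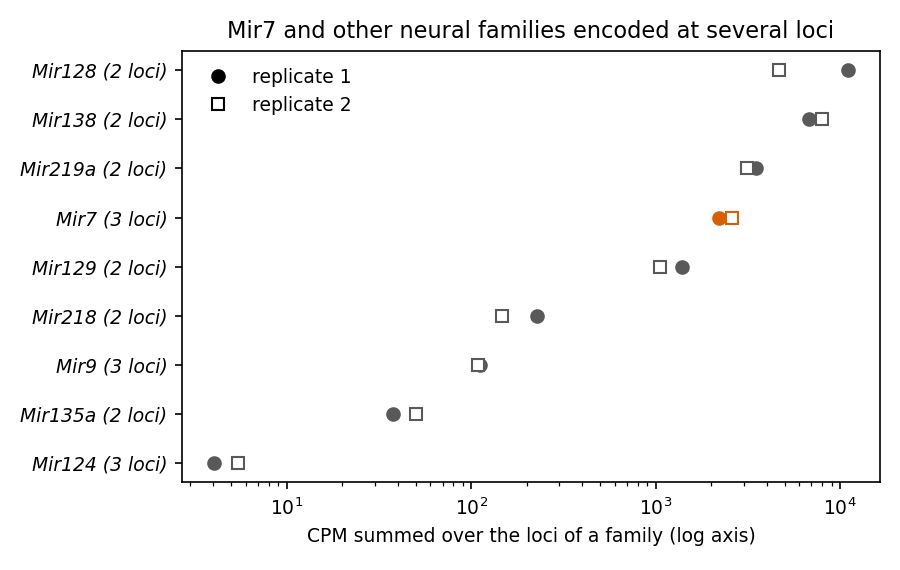
CPM summed over the loci of each family (log axis) in replicate 1 (filled circles) and replicate 2 (open squares), with the number of loci and Mir7 in orange. Mir7, at 2214 and 2592 CPM, lies between Mir219a and Mir129.

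The genes nearest to each member in level were found by Euclidean distance in log2(CPM + 1) over the 2 libraries. Mir7b and Mir671 were among each other's nearest genes, at a distance of 0.20. Nearest to Mir7b was Mir30e (2410 CPM ± 107; distance 0.18), and the third was Mir676 (2343 ± 75.6; 0.22). Nearest to Mir671 was also Mir30e (0.13), followed by Mir485 (2702 ± 252; 0.19). For Mir7-2 these were Mir10a (105 ± 27.9; 0.07), Mir130b (109 ± 22.9; 0.20) and Mir142 (92.5 ± 16.3; 0.25). For Mir7-1 they were Mir412 (63.0 ± 16.4; 0.14), Mir669o (70.8 ± 11.9; 0.26) and Mir135b (59.8 ± 20.9; 0.30). Mir30e and Mir142 had 0 counts in the unstranded column, and with 2 libraries this likeness is of level and ratio alone.

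By position, Mir671 stood out in its class. Of 25 miRNA genes that lie within coding sequence on their own strand, 3 were detected, and Mir671 was the most abundant. The other two, Gm23450 (506 CPM ± 47.3) and Mir1306 (177 ± 39.8), were named after their values were seen. Intronic hairpins such as Mir7-1 numbered 898, of which 159 were detected with a median of 189 CPM, above the 62.2 CPM of Mir7-1. Of 1023 hairpins that are intergenic by their own strand alone, 91 were detected with a median of 271 CPM, which lies between Mir7-2 and Mir7b.

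Counts on the opposite strand were all but absent at the members. Mir7b had 1 such count in replicate 1 and 0 in replicate 2, and Mir7-1, Mir7-2 and Mir671 had 0 in both, where 0 allows up to 3 counts. Mir7j and Mir7k, whose M21 symbols are Mir7 and a letter as for Mir7b, are let-7 genes in RefSeq (let-7j and let-7k). Their hairpins hold no match to GGAAGAC, the seed of miR-7. Mir7j had 131 and 190 counts and Mir7k had 0 and 1, and neither was taken as a member.

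The RNA on which the members act was examined by sequence alone, as circular RNA was not measured here. RefSeq lists Cdr1as as a synonym of Cdr1os and C230004F18Rik. The M21 gene C230004F18Rik has an exon of 2927 bases on the plus strand at chrX:61183248-61186174, which spans the opposite-strand gene Cdr1 (chrX:61184005-61185558). This exon is called the Cdr1as locus exon here. Its sequence is that of the reference genome, not of the 5xFAD/CAST mice, and variants of the CAST strain were not analysed here. The motif TCTTCC, complementary to bases 2 to 7 of miR-7a-5p and miR-7b-5p, occurred 139 times on its plus strand and 0 times on the minus strand, none overlapping another. The longer GTCTTCC, complementary to bases 2 to 8 and so a part of the same matches, occurred 123 times.

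Set beside the first 2927 bases of the longest transcript of each of 12721 other M21 genes, TCTTCC was present in 74.7% on the sense strand and 84.1% on the opposite strand, with at most 31 matches. GTCTTCC was present in 24.2% and 31.1%, with at most 12. Presence of a match is thus common in windows of this length, and the Cdr1as locus exon held more matches than any other window searched.

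Most matches were 18 bases apart. Of 138 distances between successive matches, 100 had that value, and the range was 16 to 54. They ran from base 27 to base 2852 of the exon. By kind, 34 were 8mers (base 8 paired and A opposite base 1), 89 paired base 8 without that A, 7 had the A without base 8, and 9 had neither. The 8mers lay mostly at 1 end: 28 of 39 matches before the part opposite Cdr1 were 8mers, against 2 of 80 opposite Cdr1 and 4 of 20 after it.

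**Figure D5:**
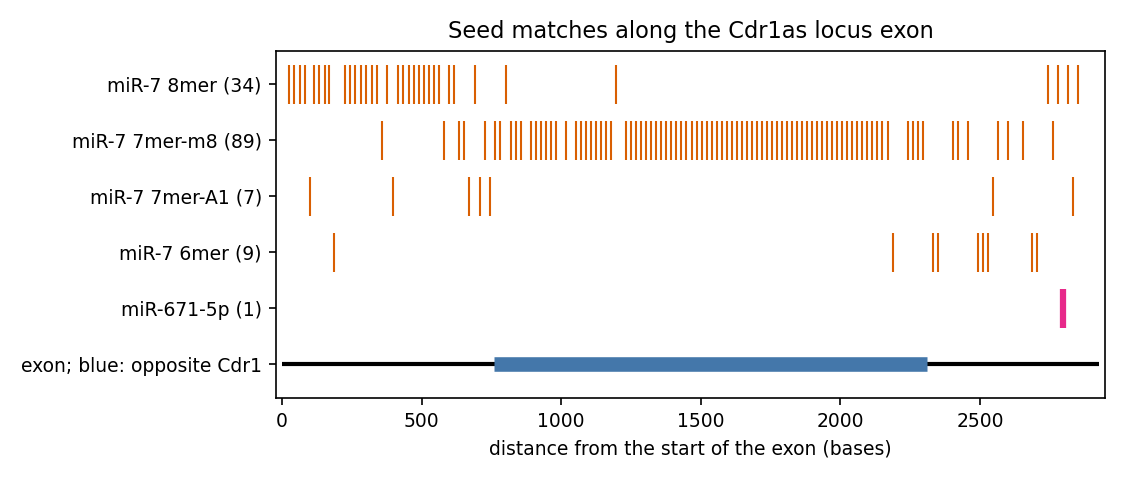
Starts of seed matches along the Cdr1as locus exon by distance from its start in bases, with miR-7 matches (orange) in rows by kind and the miR-671-5p match (pink) below. 8mer means base 8 paired and A opposite base 1, 7mer-m8 base 8 only, 7mer-A1 the A only and 6mer neither; the blue bar is the part opposite Cdr1. The 34 8mers lie mostly in the first part, and the miR-671-5p match lies near the end, its seed match starting at base 2798.

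The single difference between miR-7a-5p and miR-7b-5p fell opposite a base that most matches shared. In an alignment without gaps, the base opposite position 10 of the miRNA was A in 117 of 139 matches and T in 3. Position 10 is A in miR-7a-5p and U in miR-7b-5p (A10U), so 117 matches paired with miR-7b-5p there and 3 with miR-7a-5p. Pairing without a break from base 2 to base 10 was found for miR-7b-5p at 66 matches and for miR-7a-5p at 0. Beyond that the matches paired little: the median was 13 paired bases for either miRNA, with at most 16 of 23 for miR-7a-5p and 17 of 24 for miR-7b-5p. G:U pairs were not counted, and pairing by letters is a description, not a measure of binding.

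The most paired match and the match of miR-671-5p are shown because they differ in how far pairing extends. Capitals mark bases of the plus strand that pair with the named miRNA.
Most paired to miR-7a-5p (chrX:61183571-61183593): tCcAgAAAAatcCaAGTCTTCCA
Most paired to miR-7b-5p (chrX:61183570-61183593): ttCcAgAAAAatcCAAGTCTTCCA
Most paired to miR-671-5p (chrX:61186029-61186051): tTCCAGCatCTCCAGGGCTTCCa

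miR-671-5p had 1 match in the exon, to GCTTCC (bases 2 to 7) and to the longer GGCTTCC (bases 2 to 8), and 0 matches of GCTTCC on the minus strand. In the other windows, GCTTCC was present in 65.7% on the sense strand and 71.7% on the opposite strand, and GGCTTCC in 28.9% and 32.3%. At that match 19 of 23 bases paired, in an unbroken run over bases 2 to 14, with bases 1, 15, 16 and 23 unpaired. The next best position of the exon paired 17 bases without the seed match. The miR-7 matches had a median of 13 paired bases, and at most 16 for miR-7a-5p and 17 for miR-7b-5p. Pairing at the miR-671-5p match, the most paired position of the exon for miR-671-5p, extended through the middle of the miRNA. None of the 3p arms of the members had a match of 6 bases in the exon.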

How the data were processed

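The deposited tables hold read counts per miRNA gene of GENCODE M21 on mm10, per the record deposited with them. The aligner and its settings were not stated in what was read here. The tables have no column names: that they hold an unstranded column and a column for each strand was read from their values and the annotation. The 4 rows naming no gene (67.4% and 67.6% of reads) were left out. Counts on the gene's strand were used (4226300 and 5162369), as CPM of their total. Ratios between the libraries were scaled by TMM (edgeR 4.0.16) over the 546 genes whose summed counts reached 10, then tested by the exact binomial test (R 4.3.3) with Benjamini-Hochberg adjustment, called at 0.05. Intervals were computed with SciPy 1.17.1. On data simulated for these 546 genes with counting error alone, the test recovered 72% of 200 genes changed 2-fold. Spread beyond counting error, estimated here at a BCV of 0.481, was not simulated, so that figure does not carry over to these libraries. Alternatives were another strand column, scaling (DESeq2 1.42.0), filter, pseudocount and test. PCR reads without molecular identifiers are not independent molecules. The sequence of the Cdr1as locus exon was taken from the M21 transcripts by the annotation's coordinates, and miRNA sequences from RefSeq. Named are the members, the 3 genes nearest to each in log2(CPM + 1) and the 2 most abundant genes of each comparison list; 1 of these lists is not reported here. Mir144, Mir3107 and the neuron genes not detected were named after their values were seen. The members and lists were chosen with earlier results of these data known.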

Additional observations from a re-analysis of the deposited data

Results flagged for a closer look

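Reads mapping to several places were a signal outside the gene counts, 5244644 in replicate 1 and 6290303 in replicate 2, or 1.24 and 1.22 for each count on a miRNA gene. The tables do not assign them to genes, so how many belong to miR-7a-5p, which Mir7-1 and Mir7-2 share, was not tested.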

How the results depend on the processing

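Of 99 alternatives to the main results, 75 kept direction, call or value, 24 did not and 0 reversed. With all reads as the total, levels were 20.2 CPM for Mir7-1, 33.2 for Mir7-2, 727 for Mir7b, 802 for Mir671 and 780 for the Mir7 sum, by construction. Per kilobase of hairpin, chosen after seeing the data, they were 576, 1054, 20171 and 25202. With edgeR and a BCV set by hand to 0.1, below the 0.481 estimated, 157 genes were called in place of 321, and the log2 ratios of Mir7-1 (0.31, adjusted p = 0.359), Mir7b (0.18, 0.588) and Mir671 (0.23, 0.433) were no longer called. Under the other 6 alternatives, the exact binomial adjusted p of Mir7-1 ranged from 0.00477 to 0.0213 and that of Mir7-2 from 4.82e-11 to 3.54e-09, that of Mir7b from 2.63e-32 to 8.42e-18 and that of Mir671 from 1.77e-52 to 2.12e-32. The alternative of 2 counts added changes the ratio only, so its p is that of the main test and is the upper end of each range. Its calls could not differ, and they count among the 75. Detected genes numbered 472 at 1 CPM and 189 at 100 CPM. In the unstranded column the list medians in log2(CPM + 1) were 0 for both the blood and the oligodendrocyte lists, 0.55 for endothelium and mural, 4.24 for other neural families, 7.58 for microglia and immune and 7.90 for neuron; with a pseudocount of 0.1 the oligodendrocyte median was 7.40. Within the part opposite Cdr1, also chosen after seeing the data, miR-7 had 80 matches and miR-671-5p had 0. The cause of these changes was otherwise not tested. No paired analysis was possible because there was 1 group. With 2 libraries, no spread can be given with any precision, and counts of Mir7-1 and Mir7-2 limit their intervals.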
